A study of Cairina moschata with 9 samples.

Results

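In the abdominal fat of Muscovy duck (Cairina moschata), 118 of 14814 genes were lowest at 35 weeks of age and higher both in younger birds of 12 weeks and in older birds of 66 weeks. The values that chose them were the deposited FPKM values (fragments scaled by transcript length and library size) of the same 9 libraries. A gene was a member if its mean over the 9 libraries was at least 1 FPKM, if it was above 0 in all 6 libraries of 12 and 66 weeks, if the mean of each of these ages was at least 1.5 times the mean at 35 weeks, and if its highest value at 35 weeks lay below the lowest of the 6 other values. The study holds 3 ages with 3 birds of normal body weight each and 1 library per bird, and the labels give no treatment and no genotype. The lane codes in the labels are 3, 4 and 5 for the ages in ascending order, and an effect of lane and one of age cannot be told apart. Neither the sex nor the laying state of the birds is stated in the labels.

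Abdominal fat is the main visceral lipid store of poultry. Its adipocytes take up and release fatty acids with feeding, growth and reproduction, and the tissue also holds stromal, vascular and immune cells. RNA of the whole tissue was sequenced, so a lower level at 35 weeks can be fewer cells of a type or less RNA per cell, and these cannot be told apart. The files list genes by Ensembl-type identifier and do not pair them with names. The roles of the members, the lists of pathway genes and the markers of adipocytes and other cell types were therefore not matched, and the tissue label was not checked against markers. Identifiers are given for 3 members, and others are described by their level.

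One library has to be described before the results, because the number of members depends on it. Replicate 3 of the 12-week birds was the lowest of the 12-week libraries in 85 of the 118 members, or 72.0%. Of the 11491 genes whose mean reached 1 FPKM, which are the genes tested below, it was the lowest in 33.8%. It was the highest in 45.2% of these, against 26.0% and 28.8% for replicates 1 and 2. Replicate 3 of 12 weeks was also the lowest of all 6 libraries of 12 and 66 weeks in 71 members. Each of the other 5 libraries held that place in 5 to 15. Over all tested genes replicate 3 of 12 weeks held that place in 24.1%, and each of the other 5 libraries in 11.3% to 16.4%. When the same conditions were applied to the other 8 libraries, 491 genes met them in place of 118. Over the 9 libraries, 10814 to 11291 genes reached 1 FPKM and 1693 to 2039 had a listed value of 0. The depth of the libraries relative to each other, estimated from 356 genes with few and similar low values, ran from 0.888 to 1.26 with 1 as the mean, and, if no other scaling was applied, the ranges of the 3 ages overlapped. The number of fragments behind a value depends also on transcript length, which the files do not give.

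The trough at 35 weeks was shallow in most members. The smaller of the ratios of the 12-week and 66-week means to the 35-week mean had a median of 1.88 over the 116 members with a 35-week value above 0, and it reached 2 in 50 of these, 3 in 19 and 5 in 6. A further 66 members lay between 1.5 and 2, and 2 members at 0 in all 35-week libraries have no ratio. The gap between the birds was narrower still. The lowest of the 6 high values was at a median 1.18 times the highest value at 35 weeks, under 1.1 times it in 33 members, and at least 2 times it in 4, again without the 2 members at 0. The member nearest to the fold limit had ratios of 1.51 at 12 weeks and 1.61 at 66 weeks, from means of 8.63, 5.70 and 9.17 FPKM in order of age. The nearest gene outside it had ratios of 1.70 and 1.498, from means of 8.10, 4.77 and 7.15 FPKM. These values were used by the rule and are a description only.

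Most members, like most tested genes, were genes of low to moderate level. Their mean over the 9 libraries had a median of 10.2 FPKM and ran from 1.02 to 317 FPKM, where the median over all tested genes was 17.5 FPKM. The mean over the 9 libraries includes the 35-week values, which the rule held low. Of the members, 34 (28.8%) had a mean of 1 to 5 FPKM, 47 (39.8%) one of 5 to 20 FPKM, 31 (26.3%) one of 20 to 100 FPKM and 6 (5.08%) one of 100 to 1000 FPKM. Over all tested genes these shares were 18.9%, 35.1%, 35.2% and 9.19%. None of the 186 tested genes at 1000 FPKM or more was a member, where 1.03% of all tested genes were members. The lowest class had the highest median of the smaller ratio, at 2.13 without the 2 genes whose 35-week mean is 0, against 1.88, 1.67 and 1.97 in the following classes. These ratios were used by the rule. A gene with a 35-week mean under 1 FPKM meets the condition on the mean only through its other ages. The difference between the classes was not tested. In 6 members at least 1 of the 35-week libraries was listed at 0, and in 2 of them all 3 were. Cufflinks-type tables may list 0 for a failed estimate as well as for a gene without fragments.

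The median member of a library stood at 11.6 ± 2.26 FPKM at 12 weeks, at 5.27 ± 0.381 FPKM at 35 weeks and at 14.5 ± 1.55 FPKM at 66 weeks (SD, n = 3 each). Summed over the members, the level was 3313, 3544 and 2351 FPKM in 12-week replicates 1, 2 and 3. The sum was 1675, 1507 and 1380 FPKM in the 35-week replicates and 3748, 3766 and 4567 FPKM in the 66-week replicates. The 35-week birds were close to each other, and the rule placed them below the rest. Of the other birds, 12-week replicate 3 had the lowest sum and 66-week replicate 3 the highest. As a share of all FPKM in a library, the members made up 0.194% to 0.264% at 12 weeks, 0.0918% to 0.0975% at 35 weeks and 0.199% to 0.213% at 66 weeks. The totals were unequal, at a mean of 1312365, 1606167 and 1972453 FPKM in order of age. The mean share was therefore higher at 12 than at 66 weeks (0.233% against 0.204%), whereas the mean sum was lower (3069 against 4027 FPKM).

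**Figure D1:**
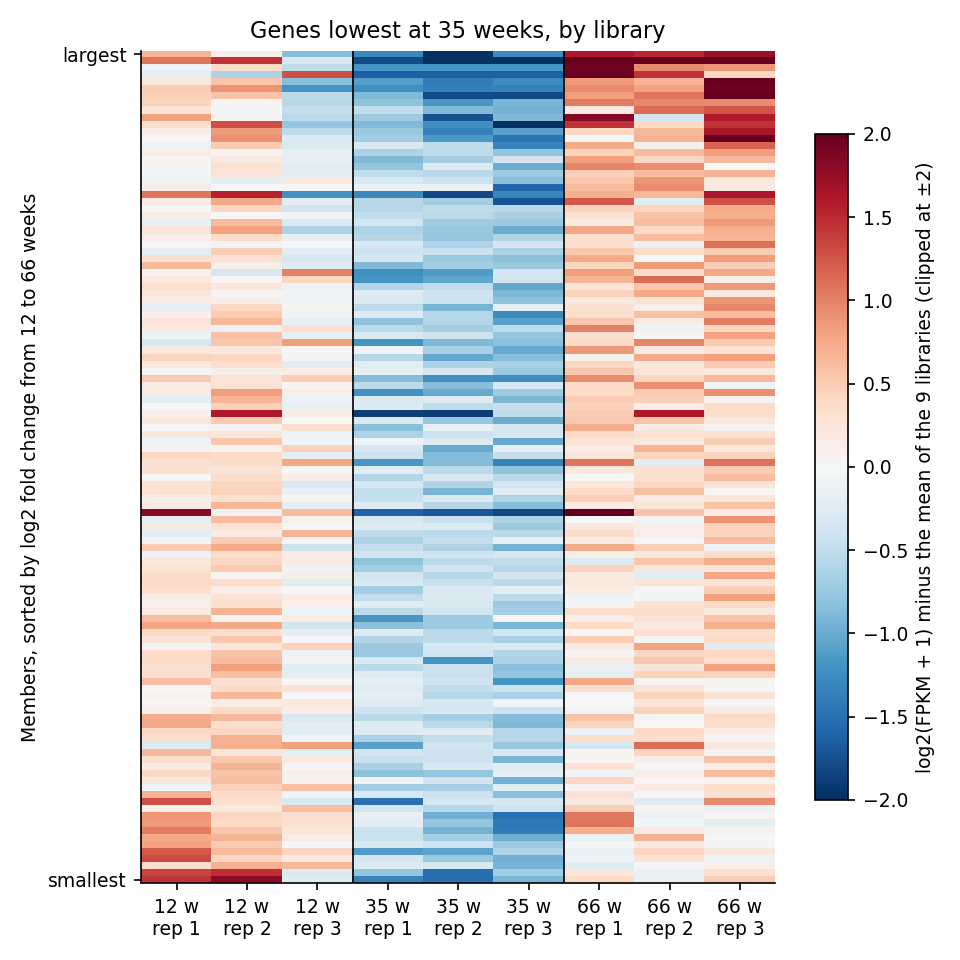
Each row is 1 of the 118 members and each column 1 library, and colour shows log2(FPKM + 1) minus the mean of the gene over the 9 libraries, with the scale ending at 2 in either direction. Rows run from the largest to the smallest log2 fold change from 12 to 66 weeks. The 3 columns of 35 weeks are low by the choice of the genes, and the column of 12-week replicate 3 is paler than those of replicates 1 and 2.

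On the log2(FPKM + 1) scale, the deepest trough belonged to ENSAPLG00000008256, which had both the largest fall from 12 to 35 weeks and the largest rise from 35 to 66 weeks. Its values were 59.4, 76.7 and 22.0 FPKM in the birds of 12 weeks, 7.29, 0 and 6.08 FPKM in those of 35 weeks, and 128, 118 and 133 FPKM in those of 66 weeks. The 3 birds of 66 weeks were nearly alike and above every 12-week bird, and the 12-week birds differed more than 3-fold among themselves. On this scale, on which changes of low genes are understated, the differences were -3.62 from 12 to 35 weeks and 5.03 from 35 to 66 weeks. The value listed at 0 in 35-week replicate 2 enters both. From 12 to 66 weeks the log2 fold change was 1.42 ± 0.79 (SE), with an adjusted p of 0.395 in limma, a linear model fitted across all tested genes with Benjamini-Hochberg adjustment.

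ENSAPLG00000002372 had the second largest fall from 12 to 35 weeks on the log2(FPKM + 1) scale; by the ratio of mean FPKM, other members fell further. Its values were 74.4, 19.3 and 32.2 FPKM at 12 weeks, 5.98, 5.57 and 5.09 FPKM at 35 weeks, and 85.2, 30.7 and 22.8 FPKM at 66 weeks. The 35-week birds were tightly grouped, while 1 bird of each other age stood well above its group. The log2 fold change was -2.50 from 12 to 35 weeks and 2.62 from 35 to 66 weeks. Between 12 and 66 weeks it was 0.12 ± 0.56 (SE; limma, adjusted p 0.935), and its sign changed to -0.32 without 12-week replicate 2 and to -0.43 without 66-week replicate 1.

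ENSAPLG00000014831 had, on the same scale, the second largest rise from 35 to 66 weeks and the largest log2 fold change of any member from 12 to 66 weeks. It was at 30.8, 20.7 and 9.95 FPKM at 12 weeks, at 7.09, 3.06 and 7.25 FPKM at 35 weeks, and at 59.5, 55.7 and 64.6 FPKM at 66 weeks. None of the 3 ages overlapped with another, and 12-week replicate 3 lay closest to the 35-week birds. From 12 to 66 weeks the log2 fold change was 1.63 ± 0.41 (SE), higher in all 3 older birds, with an unadjusted p of 0.00386 and an adjusted p of 0.133 from limma.

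**Figure D2:**
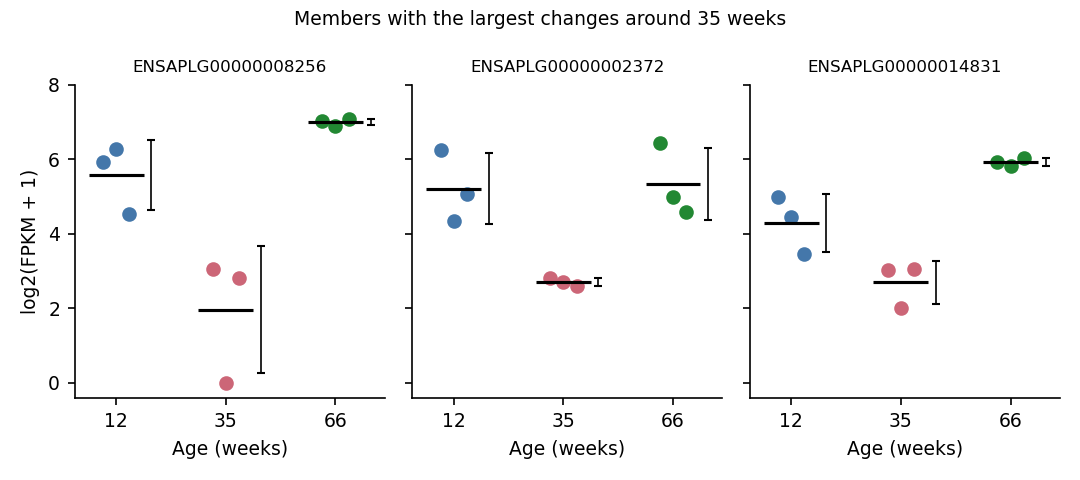
Points are the 3 libraries of each age for the 3 members given by identifier, on the log2(FPKM + 1) scale, in order of replicate from left to right. Black lines are means and the bars beside them 1 SD (n = 3). The point at 0 in the first panel is 35-week replicate 2, and the 66-week points of the left and right panels lie close together.

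As the rule required of every member, the 3 with the highest mean levels had 35-week values below the rest. The first was at 313, 334 and 156 FPKM at 12 weeks, at 122, 64.6 and 64.0 FPKM at 35 weeks and at 404, 474 and 919 FPKM at 66 weeks. Its 12-week replicate 3 was again the lowest of its age, and its 66-week replicate 3 was about 2 times the other birds of that age. The second had means of 188 ± 23.1, 98.1 ± 18.1 and 177 ± 38.6 FPKM and the third of 164 ± 52.8, 82.6 ± 5.56 and 215 ± 35.6 FPKM in order of age (SD, n = 3 each). In both of these the values of 12 and 66 weeks overlapped.

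The members were then divided by how far the level at 66 weeks returned to that at 12 weeks. The rule does not fix this comparison but restricts it, since it sets a lower limit on both means. In 75 members, or 63.6%, the 66-week mean lay within 1.3-fold of the 12-week mean, beside 59.5% of all tested genes. In 24 members, or 20.3%, it was at least 1.5 times the 12-week mean, beside 13.5% of all tested genes. In 6 members, or 5.08%, the 12-week mean was at least 1.5 times the 66-week mean, beside 12.8%. The median log2 fold change from 12 to 66 weeks was 0.16 in the members and 0.03 in all tested genes, and it was positive in 88 of the 118 members (74.6%) and in 53.2% of all tested genes.

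No member passed the test between 12 and 66 weeks. In limma at an adjusted p below 0.05, 0 of 118 were higher and 0 lower at 66 weeks, where 0.278% of all tested genes were called higher and 0.087% lower. At an unadjusted p below 0.05, 12 members were higher at 66 weeks and 0 lower, and the shares over all tested genes were 10.2% and 6.67%. The 12 members are 10.2% of 118, so the share that was higher equals that over all tested genes. The libraries of the 2 ages did not overlap in 16 members that were higher at 66 weeks, beside 13.3% of all tested genes, and in 1 that was lower, beside 9.77%. Because the rule restricts both means, no difference between the members and all tested genes is read from these shares. The smallest adjusted p of any member was 0.120 (limma), in a gene at 30.6, 28.9 and 23.9 FPKM at 12 weeks and at 37.8, 43.6 and 50.3 FPKM at 66 weeks.

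**Figure D3:**
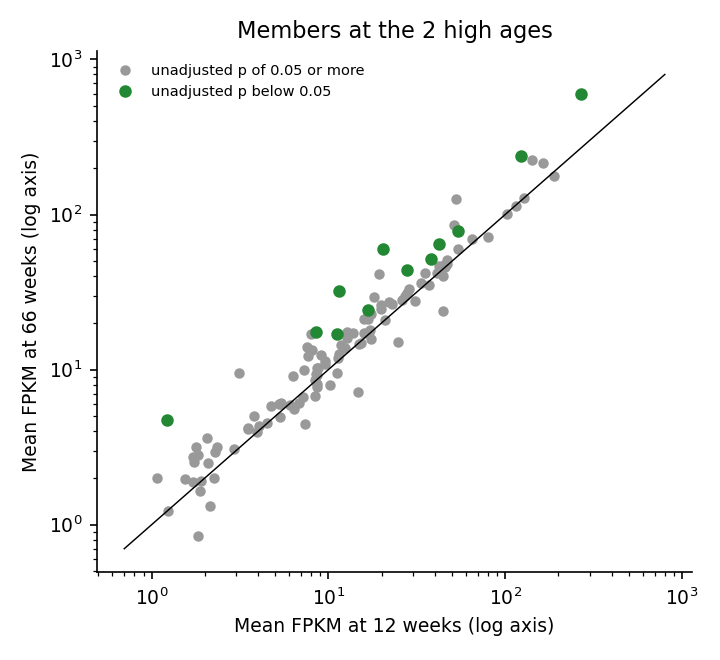
Each point is a member, with its mean FPKM at 12 weeks on the horizontal axis and at 66 weeks on the vertical axis, both logarithmic, and the line marks equal means. Green points are the 12 members with an unadjusted p below 0.05 in limma, all above the line, and none passed after adjustment.

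On the log2(FPKM + 1) scale, the largest decline from 12 to 66 weeks among the members was a log2 fold change of -0.74 ± 0.49 (SE; limma, adjusted p 0.472). That gene stood at 17.2, 22.1 and 4.65 FPKM at 12 weeks, at 1.67, 1.36 and 2.57 FPKM at 35 weeks and at 7.84, 5.13 and 8.44 FPKM at 66 weeks. The next was a log2 fold change of -0.71 ± 0.45 (SE; limma, adjusted p 0.456), from means of 44.7 ± 23.7 FPKM at 12 weeks to 23.9 ± 4.10 FPKM at 66 weeks, with 10.5 ± 3.21 FPKM at 35 weeks (SD, n = 3 each). In both genes, 12-week replicate 3 lay below every 66-week bird, whereas replicates 1 and 2 lay above them all.

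The lean of the members to higher values at 66 weeks was not tested, and the rule restricts the means of both ages. This lean was smaller in several alternatives. With 12-week replicate 3 left out, the median log2 fold change fell to 0.09, against 0.04 in all tested genes, and 62.4% of the members were positive, against 54.9%. At an unadjusted p below 0.05, 9 members were then higher and 4 lower. Without 66-week replicate 3 the median was 0.11 and 67.5% were positive, and with library weights 0.12 and 64.4%, with 12 higher and 4 lower at an unadjusted p below 0.05. Leaving out 12-week replicate 2 moved the median the other way, to 0.27, with 82.1% positive and 17 higher at an unadjusted p below 0.05. The shares over all tested genes that belong beside these unadjusted counts were not computed for these fits. Nothing about the members is therefore read from the unadjusted counts. In these fits, and in every other alternative tried, no member passed the adjusted threshold. Few of all tested genes passed it either. The calls ran from 1 higher and 0 lower with a replicate block to 76 higher and 23 lower of 11491 with library weights.

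For each library in turn, genes were also chosen by the same conditions in the other 8, and the value of the library left out was then set against the other ages. The values it is set against were used in the choice, and genes picked for low 35-week values place any further bird above them more often. The share over all tested genes is therefore not the share expected without a change, and these counts describe how the birds differ and are no test of the trough. Among the genes chosen without 66-week replicates 1, 2 and 3, the bird left out lay above all 35-week birds in 115 of 119, 116 of 135 and 113 of 124 genes. These are 96.6%, 85.9% and 91.1%, where all tested genes gave 33.2%, 33.8% and 37.0%.

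At 12 weeks the birds differed. Replicate 2 lay above all 35-week birds in 93 of 103 genes (90.3%, against 29.4% of all tested genes) and replicate 1 in 116 of 161 (72.0%, against 25.6%). Replicate 3 did so in 126 of 491 genes, or 25.7%, against 28.3% of all tested genes. It lay within the range of the 35-week birds in 243 of the 491 genes and below them in 122. Its value was at a median 0.964 times the 35-week mean of these genes, beside 0.995 times over all tested genes. The mean of replicates 1 and 2 was at 2.03 times and that of the 66-week birds at 2.16 times. The choice of the genes required both of these to be at least 1.5 times. At the median of these genes, replicate 3 of 12 weeks was at the level of the 35-week birds. Whether this belongs to the bird, to its library or to its label cannot be told apart from the files, and every 12-week mean and SD given here includes it.

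The 35-week birds also differed in these counts. Over the 9 libraries the number of genes on the side of the age ran only from 93 to 126, while the number chosen ran from 103 to 491. The percentages therefore mostly restate how many genes met the conditions without a library. Replicates 2 and 3 lay below all 6 birds of the other ages in 121 of 175 genes (69.1%, against 14.6% of all tested genes) and in 110 of 185 (59.5%, against 16.4%). Replicate 1 did so in 120 of 310 genes, or 38.7%, against 12.9%. Among the 116 members with a 35-week value above 0, replicate 1 was the highest of the 35-week libraries in 64 (55.2%), beside 33.8% of all tested genes. Replicates 2 and 3 were the highest in 25 (21.6%) and 27 (23.3%), beside 23.2% and 43.0%.

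**Figure D4:**
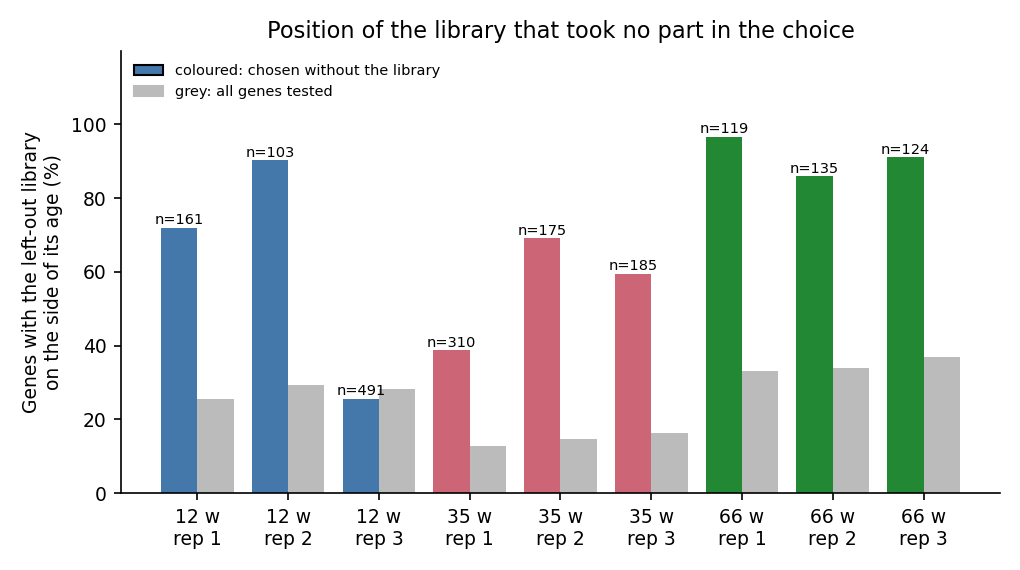
Coloured bars give, for each library, the percentage of genes chosen without it in which it lay on the side of its age: above all 35-week libraries for 12 and 66 weeks, below all libraries of the other ages for 35 weeks. Grey bars give the same percentage over all tested genes, and n is the number of genes chosen. The bar of 12-week replicate 3, at 25.7%, is the only coloured bar not above its grey bar, at 28.3%.

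Genes with the mirrored pattern, highest at 35 weeks under the same limits, numbered 280. Chosen without 12-week replicate 3 they numbered 906, and that bird lay below all 35-week birds in 32.1% of them, against 27.8% of all tested genes. For 12-week replicates 1 and 2 these shares were 83.8% and 96.9%, against 35.2% and 36.8%. Under the same conditions with another age as the lowest, 151 genes were lowest at 12 weeks and 460 at 66 weeks.

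Within the members, the distance of 12-week replicate 3 from the 35-week birds varied from gene to gene. It was under 1.3 times the highest 35-week value in 59 members, where 12-week replicates 1 and 2 were so in 25 and 7, and the 66-week replicates in 20, 19 and 13. Its median ratio to the 35-week mean was 1.54, against 1.91 and 2.16 for the other 12-week birds and 2.15, 2.11 and 2.28 for the 66-week birds. In 16 members (13.6%) it was the highest of the 12-week birds, beside 45.2% of all tested genes. The rule required the FPKM value behind each of these ratios to exceed the highest 35-week value of the gene, so the ratios describe the genes chosen.

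**Figure D5:**
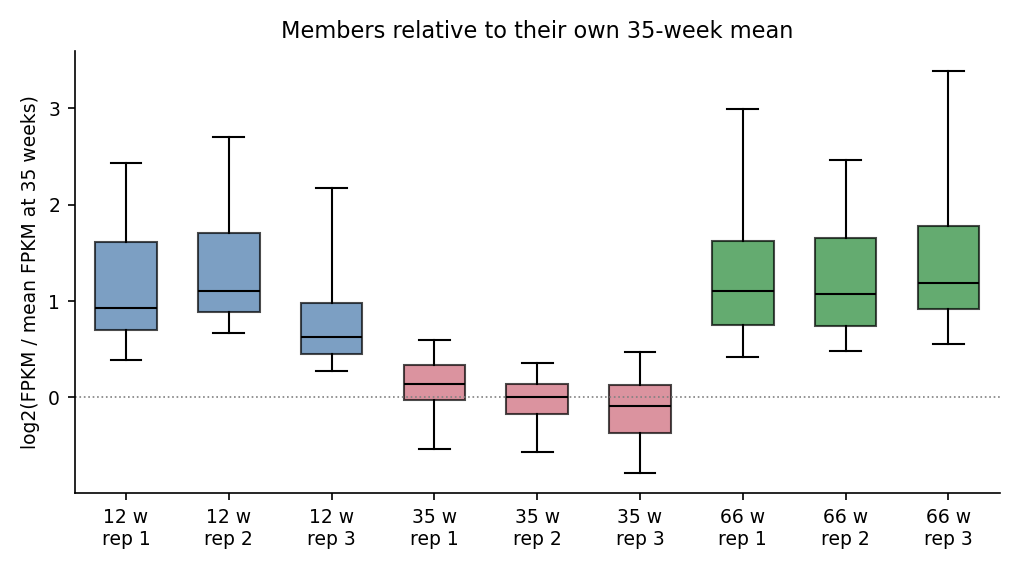
Boxes show, for each library, the members' log2 ratio of FPKM to their own mean at 35 weeks, with the median, the quartiles and whiskers from the 5th to the 95th percentile. Values of 0 and the 2 members at 0 in all 35-week libraries are left out. The median of 12-week replicate 3 is lower than those of the other 5 libraries of 12 and 66 weeks.

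The members, whose levels were lower, also had a larger spread between birds of an age, and this difference was not tested. The median coefficient of variation was 25.8%, 21.9% and 22.0% at the 3 ages in ascending order, against 21.6%, 16.6% and 16.5% in all tested genes. At 66 weeks, replicate 3 was the highest of its age in 57 members (48.3%), beside 38.1% of all tested genes. At 12 weeks, replicate 2 was the highest in 64 members (54.2%), beside 28.8%.

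The counts of calls in the contrasts that the rule used are a description, and nothing is read from them. From 35 to 66 weeks 36 members were called higher by limma at an adjusted p below 0.05, with 1.13% of all tested genes called. From 12 to 35 weeks 0 members were called lower, with 0% of all tested genes called, and at an unadjusted p below 0.05 the count was 101, with 4.09% of all tested genes. The median log2 fold change of the members was -0.79 from 12 to 35 weeks and 0.98 from 35 to 66 weeks. The test over the 3 ages called 9 members, with 0.94% of all tested genes called.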

How the data were processed

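Per the file headers, the authors deposited 1 FPKM value per gene and library. The submitters' processing notes list TopHat2 2.0.9, Cufflinks 2.1.1 and Cuffdiff, without roles. Genome build, annotation and further scaling of the values are not stated in the labels. The rule was applied to these values in Python 3.11.15 with pandas 2.3.3 and numpy 2.4.6. Members and lists were chosen with earlier results of these data known. For tests, log2(FPKM + 1) was fitted for the 11491 genes whose mean reached 1 FPKM, with limma 3.58.1 in R 4.3.3 (3 ages in 1 model, eBayes with trend, 6 residual and 2.03 prior degrees of freedom, two-sided, Benjamini-Hochberg over all tested genes, threshold 0.05). The fit was also run on simulated data with independent values for each gene. These held no shift shared by the genes of 1 library, so the check does not cover such shifts. No count test was run on FPKM. Named by rule were the 2 largest falls from 12 to 35 weeks and the 2 largest rises from 35 to 66 weeks (1 gene is both), and, without identifier, the genes nearest the fold limit, the 3 highest means and the 2 largest changes from 12 to 66 weeks each way; the gene with the smallest adjusted p was added after its values were seen. No 2 libraries were identical. The tests set differences between ages against the spread within an age. With 1 library per bird, differences between birds and between their libraries cannot be told apart in this spread. Plots used matplotlib 3.10.9.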

Additional observations from a re-analysis of the deposited data

How the results depend on the processing

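The number of members depended on the rule and on single libraries. It was 52 with a ratio of at least 2 (the 2 genes at 0 in all 35-week libraries among them), 277 with 1.2, 180 after quantile normalization (115 of the 118 among them) and 553 where the 35-week values could overlap the others. Other filters on low values or zeros, and median-ratio scaling (120, sharing 112), gave 84 to 134. Without 1 library at a time it ran from 103 to 491, with 491, 310 and 185 without 12-week replicate 3, 35-week replicate 1 and 35-week replicate 3; fewer libraries make the condition on overlap easier to meet. Of the 118, 77 met the rule in all 9 of these settings. From 12 to 66 weeks, 0 members were called higher and 0 lower in all 19 alternatives (limma, adjusted p below 0.05). Over all tested genes only 1 to 76 were called higher and 0 to 23 lower, so nothing about the members is read from this. The median log2 fold change of the members stayed positive, from 0.09 to 0.27. The numbers are not shown to pair the birds: deviations from the age means correlated at -0.0939 to 0.215 over 9 same-number pairs, 2 of them above 0.1, and 3 of 9 libraries matched best with their own number. Under a replicate block the counts of members were 0 and 0, where 1 and 0 of all tested genes were called. The median was then 0.16 and the smallest adjusted p of a member 0.134 (limma). ENSAPLG00000002372 changed sign from 12 to 66 weeks, to -0.081 with library weights, -0.32 without 12-week replicate 2 and -0.43 without 66-week replicate 1 (-0.43 to 0.63 without 1 library at a time); the adjusted p over its alternatives was 0.553 to 0.988 (limma). The other 7 named members kept their sign. In the member with the second highest mean level the sign means little, since its log2 fold change was -0.106 and shrank to -0.0011 without 66-week replicate 1. The cause of the changes between settings was not tested. With 3 birds per age and an unknown number of fragments per value, small differences between 12 and 66 weeks were not detectable. Larger ones were not called either, up to the log2 fold change of 1.63 in ENSAPLG00000014831 (limma, adjusted p 0.133).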
